A study of Mus musculus and Homo sapiens with 12 samples.

Results

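The genes described here were 40 genes of mitosis, the stage of the cell cycle in which copied chromosomes are pulled apart and the cell divides. They were chosen by name: a row belonged to the set where its symbol, ignoring case, was one of the 40 names. The names were set with earlier results of these data known, so shares set against all tested genes are descriptive. In mouse leukaemia cells 36 of the 40 were found among 10430 listed genes, and Cenpe, Kif20b, Mki67 and Bub3 had no row under their symbol. In the human leukaemia line KOPTK1, 39 of the 40 were found among 11513 listed genes, and only the mouse name Kif4 had no row.

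All mouse libraries came from T-cell acute lymphoblastic leukaemia (T-ALL) of C57BL/6 mice that had received secondary transplants of tumours driven by NOTCH-delta E, a form of the NOTCH1 receptor. Every mouse group therefore carried the same kind of NOTCH-driven tumour. By the labels the control diet had 8 g/kg of valine and the test diets 0.8, 0.4 or 0 g/kg, and leukaemic cells were sorted by GFP from the spleen after 3 weeks. The treatment protocol instead gives 0.8 or 0.4 g/L of valine in the drinking water of mice on a valine-deficient diet, so diets are named by the g/kg figure and used only as ranks. Each diet had 2 libraries, named TALL2 and TALL3, and the meaning of these names is not given in the sources used here. Ages of the mice, and whether a library held 1 animal or a pool, are likewise not stated. The human libraries were of KOPTK1, an established T-ALL line, kept for 72 h in DMSO, the solvent control, or with the gamma-secretase inhibitor Compound E (gSI), which blocks the release of active NOTCH1. There were 2 libraries per treatment. With nothing stating that 2 libraries of a group came from separate animals or cultures, the p-values measure no more than how far these libraries spread, possibly for technical reasons.

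Entry into mitosis is driven by CDK1 bound to cyclin A or B, with PLK1 and Aurora A as partner kinases. Kinetochores then assemble on centromeres that carry the histone variant CENPA, the spindle checkpoint holds the cell until every chromosome is attached, and the anaphase-promoting complex (APC/C) with its partner CDC20 marks cyclin B for destruction. Transcripts of these genes accumulate late in the cell cycle, so their level in a bulk sample reflects dividing cells. Valine is an essential amino acid that leukaemia cells must take up. In bulk RNA, fewer cells in mitosis and less of a transcript per cell cannot be told apart.

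Promoters of late cell-cycle genes are known for pairing CCAAT boxes, which bind NF-Y, with the cell cycle homology region (CHR), which binds the MuvB complex. Promoter windows of 300 bases, from 250 before to 50 after the transcription start, were taken from RefSeq on GRCm38.p6, and 29 of the 36 mouse genes had one. CCAAT, searched on both strands as CCAAT or ATTGG, was present for 23 of 29 genes (79.3%), against 41.1% of 27025 genes. The CHR letters, TTTGAA on either strand (read as TTCAAA on the opposite strand) or TTCGAA, were present for 25 of 29 (86.2%), against 21.7%. Both were present for 22 of 29 (75.9%), against 8.6%. A gene was counted where any of its windows held the motif, overlapping matches of either motif were all counted, and a match describes letters, not a bound site. The 4 stretches below are each of the 180 bases just before the RefSeq start. They come from the first 4 genes of a fixed order (Cdk1, Ccnb1, Ccnb2, Plk1, Cdc20, Aurka, Top2a, Birc5) with both motifs before the start. Ccnb1, Plk1 and Aurka were passed over, having no CHR match there. Cdk1 is the mitotic kinase, Ccnb2 and Cdc20 stand among the largest differences on the valine-free diet, and Top2a does not. All 4 genes lie on the minus strand, at chr10:69352913-69353092 for Cdk1, chr9:70421555-70421734 for Ccnb2, chr4:118437344-118437523 for Cdc20 and chr11:99024190-99024369 for Top2a. In the GRCm38 annotation (GENCODE) these genes span chr10:69335146-69352938, chr9:70407692-70421547, chr4:118432901-118437352 and chr11:98992943-99024189. The GENCODE spans of Cdk1 and Cdc20 thus reach into their stretches. They cover the last bases there, with the Cdk1 CHR match at −15 and the Cdc20 CCAAT match at −8. The stretches are written 5′ to 3′, with CCAAT and CHR matches in capitals. Matches elsewhere in the windows are not shown. Ccnb2 had a further CHR match at position 4 from the start. Further CCAAT matches lay at −208 for Cdk1 and at −227 and −189 for Top2a.
Cdk1: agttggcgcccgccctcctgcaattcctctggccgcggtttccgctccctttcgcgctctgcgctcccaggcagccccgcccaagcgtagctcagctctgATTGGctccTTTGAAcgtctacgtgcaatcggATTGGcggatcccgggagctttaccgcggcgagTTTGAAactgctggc
Ccnb2: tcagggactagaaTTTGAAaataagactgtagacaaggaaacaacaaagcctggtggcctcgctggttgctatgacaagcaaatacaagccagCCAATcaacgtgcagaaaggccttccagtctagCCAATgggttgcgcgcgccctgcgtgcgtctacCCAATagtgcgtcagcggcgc
Cdc20: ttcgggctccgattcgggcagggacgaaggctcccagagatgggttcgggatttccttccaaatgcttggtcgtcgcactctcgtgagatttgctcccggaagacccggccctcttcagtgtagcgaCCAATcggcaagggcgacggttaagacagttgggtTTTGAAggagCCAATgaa
Top2a: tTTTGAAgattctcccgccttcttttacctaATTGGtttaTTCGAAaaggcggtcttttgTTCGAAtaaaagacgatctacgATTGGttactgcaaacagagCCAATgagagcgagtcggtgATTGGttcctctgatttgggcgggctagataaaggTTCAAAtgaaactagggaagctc

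In these stretches Cdk1 had 2 CCAAT and 2 CHR matches, Ccnb2 3 and 1, Cdc20 2 and 1, and Top2a 4 and 4. The genes were chosen for holding both motifs, so their presence in each stretch is not a result.

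Values were FPKM (fragments per kilobase of gene, per library size), which scale for gene length and depth. Mouse libraries held 14222895 to 37687253 reads over the listed genes and KOPTK1 libraries 22937707 to 42242173, as recovered from the steps between FPKM values. All 36 mouse genes stood on at least 173 reads in every library and above the 42nd percentile of mean FPKM. Leukaemic identity was checked first: all 17 T-ALL and thymocyte markers were listed, with summed levels of 3747 to 5047 FPKM, and 3 of 12 B cell and 7 of 12 macrophage markers were listed. Markers of other blood cells differed between the diets, without passing the test. Summed over the 15 of 16 neutrophil markers listed, levels in TALL2 and TALL3 were 0.964 and 10.9 FPKM on the control diet, 14.3 and 12.4 on 0.8 g/kg, 13.0 and 78.5 on 0.4 g/kg and 580.4 and 347 without valine. S100a8 and Elane, which define neutrophils and their precursors, were at 0 in the TALL2 control library. Over the 14 of 17 erythroid markers listed, sums were 189.7 and 353 FPKM on the control diet, 108 and 85.5 on 0.8 g/kg, 135 and 126 on 0.4 g/kg and 73.1 and 63.7 without valine, and the haemoglobin genes Hbb-bs, Hbb-bt and Hba-a1 were at 0 in the TALL2 library at 0 g/kg. The macrophage markers listed summed to 11.1 and 24.8 FPKM on the control diet, 15.2 and 13.9 on 0.8 g/kg, 10.4 and 15.9 on 0.4 g/kg and 42.4 and 43.5 without valine. For the B cell markers listed (Cd74, H2-Aa and H2-Ab1) sums were 3.62 and 22.6, 10.8 and 15.1, 15.5 and 21.5, and 22.5 and 101.5 FPKM over the same diets. The part of these cells in the results that follow was not tested.

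The question put to the mouse data was how mitosis genes differed with the valine supply. Across the 36 genes, the mean FPKM was highest at 0.4 g/kg for 28 genes and at 0.8 g/kg for 8. It was lowest at 0 g/kg for 32 genes and at 8 g/kg for 4 (Top2a, Nuf2, Ndc80 and Ttk). None of the differences passed an adjusted p of 0.05, in any comparison between diets, and none of the 9943 tested genes did either in limma (0.0% of the background). The counts at an unadjusted p under 0.05 are given with each comparison, and limma-voom on recovered reads called none of the 36 genes.

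The 2 libraries of a diet were not alike. The median over the 36 genes of the log2 difference from the control mean was −0.10 in TALL2 and 0.10 in TALL3 on the control diet, 0.03 and 0.53 on 0.8 g/kg, 0.41 and 0.35 on 0.4 g/kg and −0.52 and −0.04 without valine. TALL3 was above TALL2 for 35 of 36 genes on the control diet and for all 36 on 0.8 g/kg and without valine, but for 3 on 0.4 g/kg. The TALL3 library at 0.8 g/kg was the highest of all 8 for 30 genes and the TALL2 library at 0.4 g/kg for the other 6. The TALL2 library at 0 g/kg was the lowest for 35 genes, and the TALL2 control library for 1. The highest and lowest value of each gene thus sat mainly in 3 libraries. The TALL3 library at 0.4 g/kg was also above the control mean for all 36 genes.

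**Figure D1:**
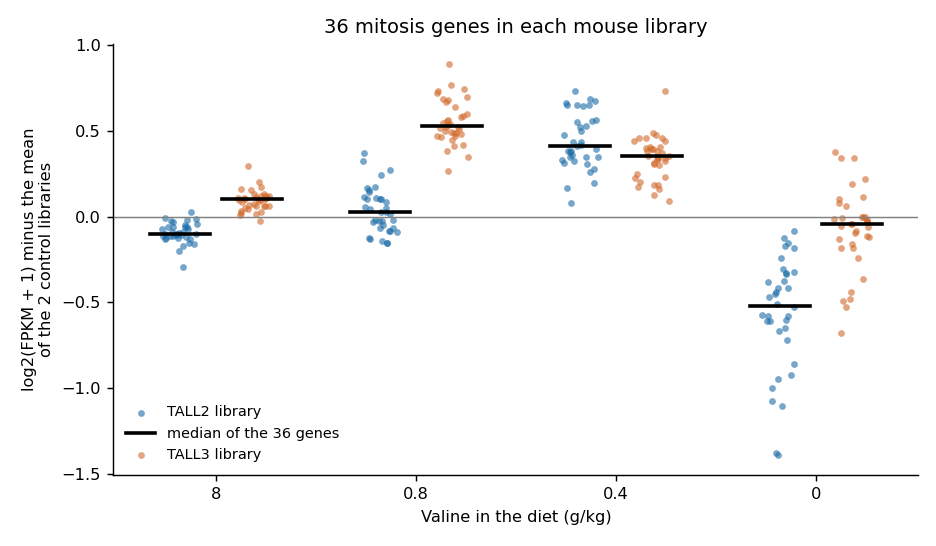
Each point is 1 of 36 mitosis genes in 1 mouse library, as log2(FPKM + 1) minus the gene's mean over both control libraries (vertical axis), by valine in the diet in g/kg (horizontal axis), with TALL2 libraries in blue, TALL3 libraries in orange and black bars at the median of the 36 genes. Medians were 0.41 and 0.35 at 0.4 g/kg, whereas at 0.8 and 0 g/kg the 2 libraries stood apart (0.03 and 0.53, −0.52 and −0.04).

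On the valine-free diet 32 of 36 genes were below the control diet, against 52.2% of all tested genes, with a median log2 difference of −0.28 against −0.01 over all tested genes. Single genes ran from −1.04 (Ccnb2, cyclin B2) to 0.11 (Ttk, a checkpoint kinase). For 14 genes both valine-free libraries lay below both control libraries, and this was so for 22.9% of all tested genes. Unadjusted p-values under 0.05 were found for Cenpa, Cenpf, Ccnb2 and Ccnb1, all lower (4 of 36, against 5.52% of tested genes), and the smallest adjusted p was 0.380 (limma). The size of the difference moved with single libraries. Without the TALL2 library at 0 g/kg the median was −0.04, with 9 genes higher, and without the TALL3 library it was −0.52, with none higher. Without the TALL3 control it was −0.17. Such omissions set 1 library against both of the other diet, although TALL3 was mostly above TALL2. By name, medians against the control mean were −0.10 (control) and −0.52 (valine-free) in TALL2, and 0.10 and −0.04 in TALL3, lower without valine in both.

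At 0.4 g/kg all 36 genes had a higher mean than on the control diet, as did 41.0% of all tested genes. The median log2 difference was 0.38 (all tested genes −0.05), with a range of 0.14 (Cenpa) to 0.73 (Hmmr, a spindle-associated hyaluronan receptor). Both 0.4 g/kg libraries lay above both control libraries for 34 genes, all but Aurkb and Cdc20, against 16.9% of the background. Unadjusted p-values under 0.05 were found for 8 genes (background 3.08%), but the smallest adjusted p was 0.397 (Top2a, limma) and none of the tested genes were called (0.0%). These differences were present in both 0.4 g/kg libraries, which lay within 0.30 (log2) of each other for each gene. Their size also depended on the control libraries. Without the TALL2 control the median was 0.30, with 35 genes higher and 1 lower, and without the TALL3 control it was 0.46. Without the TALL2 or the TALL3 library at 0.4 g/kg it was 0.35 or 0.41.

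At 0.8 g/kg the 36 means were also all above the control diet, whereas 60.0% of all tested genes were lower, with a median log2 difference of 0.28 against −0.04 over all tested genes. Only 13 genes had libraries that did not overlap (background 10.6%), and 4 had an unadjusted p under 0.05 (background 1.15%), Top2a, Cenpf, Anln and Hmmr. Every adjusted p was 0.998 (limma, 0.0% of tested genes called). The TALL3 library at 0.8 g/kg carried most of it. Without that library the median was 0.03, with 20 genes higher and 16 lower, and without the TALL2 library it was 0.53. The comparisons of 0, 0.4 and 0.8 g/kg with 8 g/kg share their control libraries, so their values are set side by side and their likeness is not counted.

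**Figure D2:**
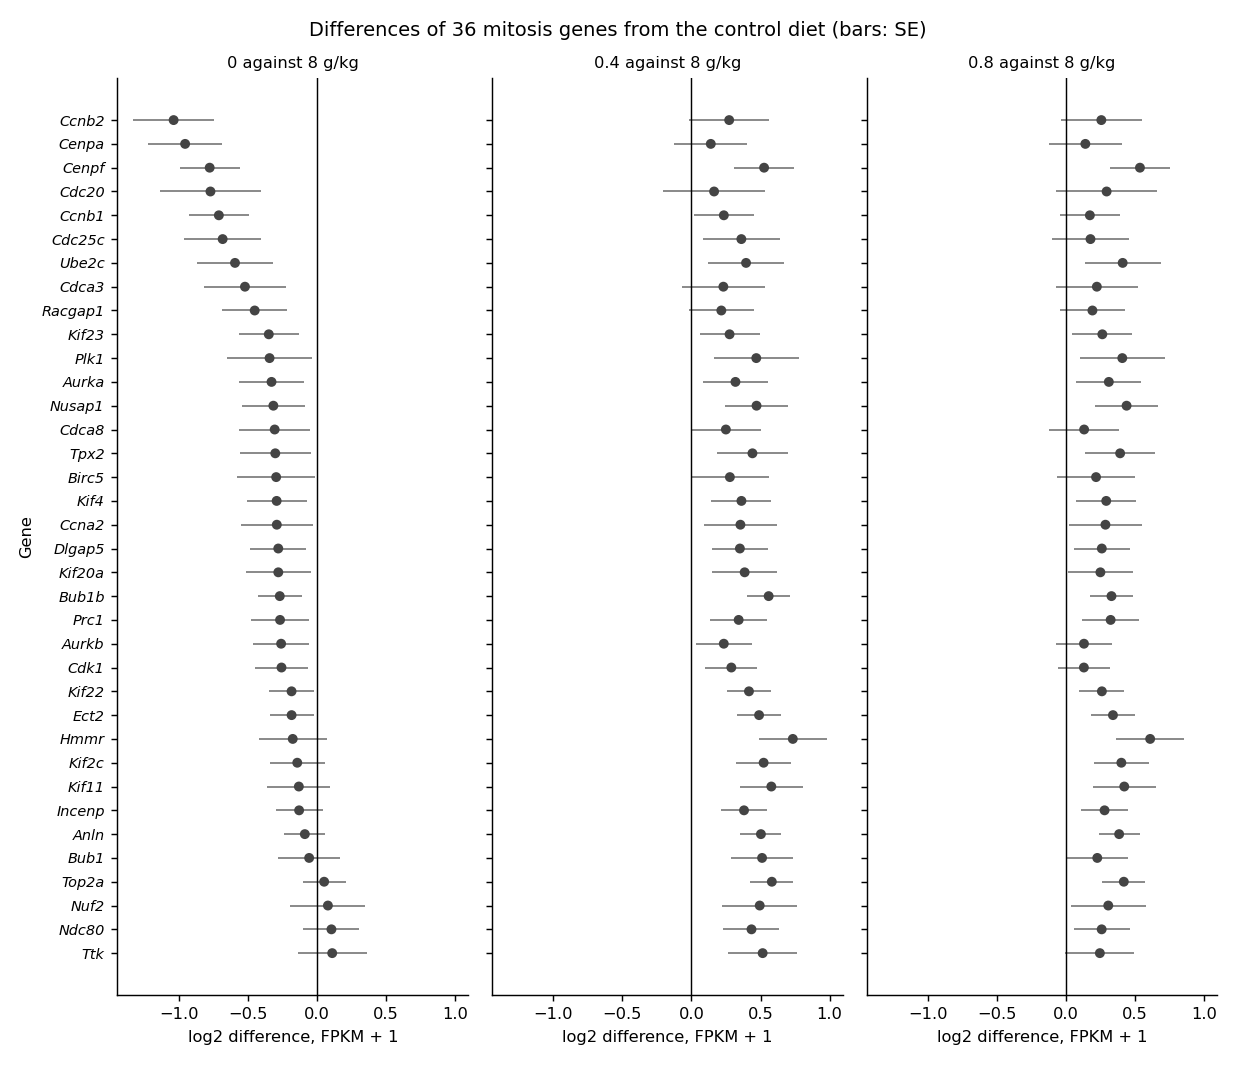
For each of 36 mitosis genes (rows, ordered by the first panel) the panels show the log2 difference of FPKM + 1 from the control diet for 0, 0.4 and 0.8 g/kg valine, on 1 shared horizontal axis, with bars of 1 standard error from limma (2 libraries per diet). Differences ran from −1.04 to 0.11 at 0 g/kg and were above 0 for all genes in the other panels, and none passed an adjusted p of 0.05.

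A slope over the diets ranked by falling valine (log2 per step) was fitted as well, although the middle diets were the high ones. It was below 0 for 31 of 36 genes (background 53.3%), with a median of −0.08, and its smallest adjusted p was 0.406 (Cenpa, the only gene with an unadjusted p under 0.05, against 6.37% lower in the background, with 0.0% called). Without the TALL2 library at 0 g/kg the median slope was 0.05, with 27 genes above 0, and without the TALL2 control it was −0.14. An F test of any difference between the 4 diets had an unadjusted p under 0.05 for 14 of 36 genes, against 6.31% of tested genes, and a smallest adjusted p of 0.590 (0.0% called).

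The valine-free diet was also set directly against the restricted diets, comparisons chosen after the levels were seen. Against 0.4 g/kg the 36 genes were all lower (background 38.9%), with a median log2 difference of −0.66 against 0.05 over all tested genes, and both valine-free libraries lay below both 0.4 g/kg libraries for all 36 (background 11.8%). An unadjusted p under 0.05 was found for 31 genes (background 1.74%), yet the smallest adjusted p was 0.694 (limma, 0.0% called). Without the TALL2 library at 0 g/kg the median was −0.44. Against 0.8 g/kg the genes were again all lower (background 42.2%), with a median of −0.58, non-overlapping libraries for 28 genes (background 9.49%), 22 unadjusted p-values under 0.05 (background 1.76%) and a smallest adjusted p of 0.382 (0.0% called). Without the TALL3 library at 0.8 g/kg that median was −0.35, and without the TALL2 valine-free library −0.37.

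The genes of mitotic entry were all lower on the valine-free than on the control diet (8 of 8, median log2 difference −0.43), with the B cyclins farthest down. In every list of values that follows, TALL2 precedes TALL3. Ccnb2, cyclin B2, was at 82.3 and 95.8 FPKM on the control diet, 84.7 and 133 on 0.8 g/kg, 102 and 113 on 0.4 g/kg and 33.2 and 55.0 without valine. Both valine-free libraries were below the other 6, and the difference from control was −1.04 (SE 0.292, adjusted p = 0.389 in limma). Ccnb1, cyclin B1, was at 13.7 and 16.2, 14.1 and 20.2, 19.2 and 16.3, and 7.38 and 10.3 FPKM over the same diets. Its valine-free libraries too were below all others (−0.71, SE 0.219, adjusted p = 0.408).

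Cdk1, the kinase these cyclins activate, differed less. Its levels were 21.7 and 25.9 FPKM on the control diet, 22.2 and 30.5 on 0.8 g/kg, 30.5 and 28.0 on 0.4 g/kg and 17.5 and 22.2 without valine. The TALL3 valine-free library lay inside the control range, and the difference from control was −0.26 (SE 0.188). Ccna2, cyclin A2, stood at 86.8 and 103 FPKM on the control diet, 92.5 and 144 on 0.8 g/kg, 126 and 117 on 0.4 g/kg and 63.2 and 94.1 without valine. As for Cdk1, each valine-free library was below the control library of its own name, and the TALL3 one lay between both controls (−0.29, SE 0.262).

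The entry kinases Plk1 and Aurka had the same shape. Plk1 was at 44.5 and 59.0 FPKM on the control diet, 52.9 and 88.1 on 0.8 g/kg, 72.8 and 69.9 on 0.4 g/kg and 31.9 and 50.8 without valine. Aurka, which encodes Aurora A, was at 32.2 and 38.8 FPKM on the control diet, 36.8 and 52.6 on 0.8 g/kg, 44.4 and 44.2 on 0.4 g/kg and 23.0 and 34.0 without valine. Both had their highest value in TALL3 at 0.8 g/kg and their lowest in TALL2 at 0 g/kg, and valine-free and control libraries overlapped. Cdc25c, the phosphatase that activates CDK1, had a lower valine-free mean at 0.599 of the control mean, and Cdca3, a trigger of mitotic entry, at 0.711. At 0.4 g/kg the libraries of all 8 entry genes lay above both control libraries, with differences of 0.23 to 0.47.

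**Figure D3:**
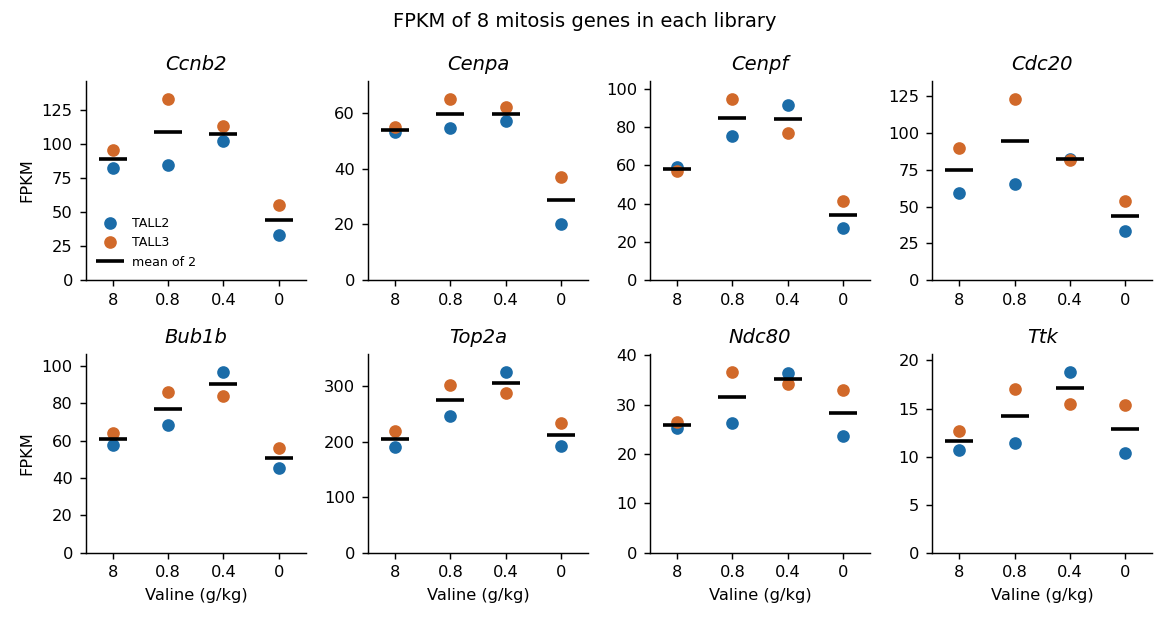
FPKM (vertical axes, from 0) of 8 mitosis genes by valine in the diet in g/kg (horizontal axes), with the TALL2 library in blue, the TALL3 library in orange and a black bar at the mean of the 2. Both valine-free libraries lie below the other 6 for Ccnb2, Cenpa, Cenpf, Cdc20 and Bub1b, and not for Top2a, Ndc80 and Ttk.

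Kinetochore genes were split. Cenpa, the centromeric histone variant, was at 53.0 and 54.9 FPKM on the control diet, 54.6 and 65.0 on 0.8 g/kg, 57.0 and 62.3 on 0.4 g/kg and 20.1 and 37.2 without valine. Cenpf, a large protein of the outer kinetochore and nuclear matrix, was at 58.9 and 56.9, 75.1 and 94.6, 91.3 and 76.9, and 27.0 and 41.3 FPKM over the same diets. For both, the valine-free libraries were the 2 lowest, and the differences from control were −0.95 (SE 0.265, adjusted p = 0.380) for Cenpa and −0.78 (SE 0.217, adjusted p = 0.387) for Cenpf. Cenpf was also higher at 0.4 g/kg (0.53) and at 0.8 g/kg (0.54), without overlap with the control libraries.

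Ndc80 and Nuf2, which form the microtubule-binding arm of the kinetochore, did not share this. Ndc80 was at 25.2 and 26.4 FPKM on the control diet, 26.3 and 36.7 on 0.8 g/kg, 36.3 and 34.2 on 0.4 g/kg and 23.6 and 32.9 without valine. The valine-free libraries lay on either side of the controls, and the difference was 0.11 (SE 0.203, adjusted p = 0.887). Nuf2 had a valine-free mean at 1.07 times the control mean.

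The spindle checkpoint was led by Bub1b, which encodes the checkpoint kinase-like protein BUBR1. It was at 57.9 and 63.9 FPKM on the control diet, 68.4 and 85.8 on 0.8 g/kg, 96.8 and 83.8 on 0.4 g/kg and 45.4 and 55.9 without valine. The 4 diets held separate ranges except that 0.8 and 0.4 g/kg overlapped, and Bub1b was the gene with the second smallest p at 0.4 g/kg (0.56, SE 0.158, adjusted p = 0.409). Ttk, the kinase MPS1, was at 10.7 and 12.7, 11.4 and 17.0, 18.8 and 15.4, and 10.4 and 15.4 FPKM over the same diets. It was high at 0.4 g/kg (0.52, SE 0.249), while its valine-free libraries stood on both sides of the controls. Bub1, a kinase that recruits checkpoint proteins, had a valine-free mean at 0.978 of the control mean. The row with the mouse identifier of Bub3, which had no symbol and is outside the 36, was at 49.9 and 54.8 FPKM on the control diet and at 43.0 and 49.7 without valine.

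Partners of the anaphase-promoting complex had the largest median difference of the role groups on the valine-free diet (−0.68, 2 genes). Cdc20, the activator that the checkpoint restrains, was at 59.5 and 90.1 FPKM on the control diet, 65.6 and 123 on 0.8 g/kg, 82.3 and 82.0 on 0.4 g/kg and 33.6 and 53.8 without valine. Its control libraries were far apart, so that the difference of −0.77 had an SE of 0.366 (adjusted p = 0.526), although both valine-free libraries were below the other 6. Ube2c, the ubiquitin-conjugating enzyme of the complex, had valine-free levels of 32.7 and 53.9 FPKM against 62.9 and 64.8 at 8 g/kg.

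The 4 chromosomal passenger genes were lower on the valine-free than on the control diet by a median of −0.28 (log2, range −0.30 to −0.13), as was the whole set (−0.28). Aurkb, the Aurora B kinase of the complex, was at 59.4 and 68.6 FPKM on the control diet, 58.4 and 83.7 on 0.8 g/kg, 83.2 and 68.2 on 0.4 g/kg and 48.7 and 58.2 without valine. The valine-free libraries were the 2 lowest, the higher of them by a margin smaller than 1 FPKM (−0.26, SE 0.202). Birc5, survivin, was at 23.1 and 26.8, 23.4 and 35.9, 30.9 and 29.8, and 15.4 and 26.0 FPKM, with the TALL3 valine-free library inside the control range. The remaining passengers, Cdca8 (borealin) and Incenp (the scaffold), overlapped likewise between 0 and 8 g/kg.

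The 7 genes of spindle assembly and motors were all higher at 0.4 g/kg without overlap with the controls (median 0.47), and at 0 g/kg their median was −0.18. Kif11, the motor that separates the spindle poles, was at 59.4 and 69.5 FPKM on the control diet, 72.6 and 103 on 0.8 g/kg, 104 and 89.6 on 0.4 g/kg and 49.3 and 69.7 without valine. At 0.4 g/kg it stood 0.58 above control (SE 0.227, adjusted p = 0.456), and at 0 g/kg its libraries straddled the controls. Hmmr had the highest ratio of the set to control, 1.70 at 0.4 g/kg and 1.58 at 0.8 g/kg in mean FPKM. Tpx2 and Nusap1, which nucleate and bundle spindle microtubules, had valine-free means at 0.820 and 0.799 of the control mean. The rest of the group, Dlgap5, Kif22 and Kif2c, lay within its ranges of −0.31 to −0.13 at 0 g/kg and 0.35 to 0.73 at 0.4 g/kg.

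Central spindle and cytokinesis genes lay close together (7 genes, median −0.28 at 0 g/kg and 0.36 at 0.4 g/kg). Prc1, which bundles microtubules between the separating chromosomes, was at 25.6 and 29.5 FPKM on the control diet, 29.6 and 40.4 on 0.8 g/kg, 35.3 and 34.9 on 0.4 g/kg and 19.0 and 27.1 without valine. Anln, the contractile ring scaffold anillin, was at 11.9 and 12.2, 14.4 and 17.7, 19.5 and 15.6, and 10.6 and 12.0 FPKM. Both restricted diets were above both control libraries for Anln (0.50 at 0.4 g/kg and 0.38 at 0.8 g/kg, SE 0.149), and the TALL3 valine-free library stood between the controls. Racgap1 and Kif23, which together form centralspindlin, had valine-free libraries below all 6 others. Ect2, which activates RhoA at the division site, and the motors Kif4 and Kif20a lay within the group's ranges of −0.45 to −0.09 at 0 g/kg and 0.22 to 0.50 at 0.4 g/kg.

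Top2a, topoisomerase II alpha, which untangles sister chromatids, was the most abundant of the set per length. It was at 190.3 and 219 FPKM on the control diet, 246 and 303 on 0.8 g/kg, 326 and 287 on 0.4 g/kg and 192 and 233 without valine. Valine-free and control libraries interleaved (0.05, SE 0.156, adjusted p = 0.928), whereas the 0.4 g/kg difference was 0.58 (SE 0.156, adjusted p = 0.397) and the 0.8 g/kg difference 0.42 (SE 0.156).

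**Figure D4:**
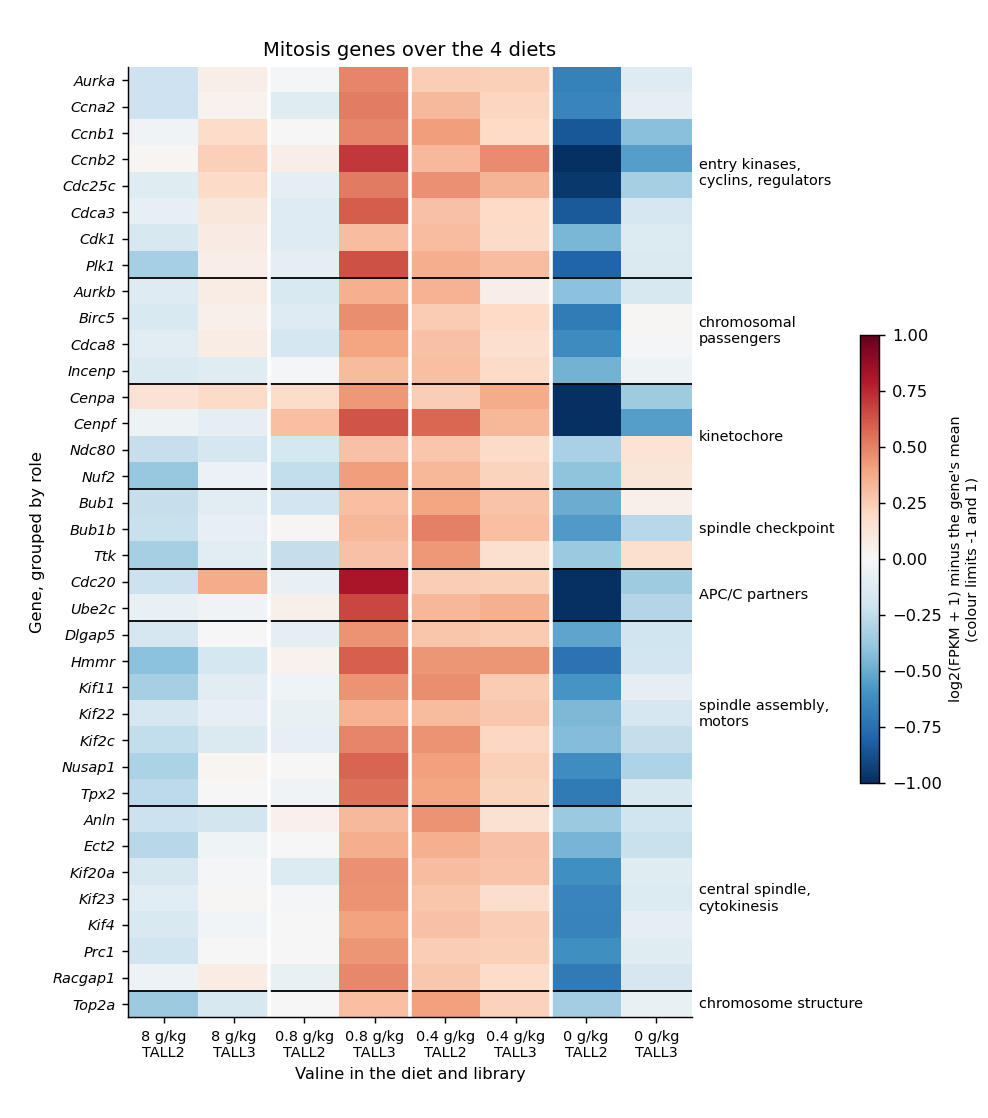
Each cell is log2(FPKM + 1) of 1 mitosis gene (rows, grouped by role) in 1 mouse library (columns, diet in g/kg and library name) minus the gene's mean over the 8 libraries, with colours limited to −1 and 1. The TALL2 column at 0 g/kg is the lowest for 35 of 36 genes, and the TALL3 column at 0.8 g/kg the highest for 30.

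On the valine-free diet, for 14 of 36 genes (Aurkb, Bub1b, Ccnb1, Ccnb2, Cdc20, Cdc25c, Cdca3, Cenpa, Cenpf, Dlgap5, Kif22, Kif23, Racgap1 and Ube2c) both valine-free libraries lay below all 6 others, against 3.86% of all tested genes.

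Other cell-division genes, from lists of known function that were also set with earlier results known, gave the setting. Of 80 further mitosis genes tested, 77 were higher at 0.4 than at 8 g/kg (median 0.26, background 41.0%) and 70 at 0.8 g/kg (median 0.18, where 60.0% of all tested genes were lower), none past an adjusted p of 0.05. At 0 g/kg they divided into 40 higher and 40 lower (median 0.00), a share near that of all tested genes (47.8% higher), and against 0.4 g/kg 65 were lower (median −0.28, background 38.9%). Pkmyt1, a kinase that restrains CDK1, was at 21.8 and 21.2 FPKM on the control diet and at 31.7 and 34.9 without valine (0.61, adjusted p = 0.358), and Cdkn3, a phosphatase acting on CDKs, at 7.26 and 8.89 and at 3.33 and 5.28 FPKM (−0.79, adjusted p = 0.424). Neither passed the threshold.

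The DNA replication genes were higher without valine. All 38 tested were higher at 0 than at 8 g/kg (background 47.8%), with a median of 0.28 and non-overlapping libraries for 27 (background 19.1%). At 0.4 g/kg 31 were higher (median 0.15, background 41.0%). At 0.8 g/kg 25 were lower (median −0.07), a share near the 60.0% of all tested genes. Between 0 and 0.4 g/kg 34 were higher at 0 g/kg (median 0.15, background 61.1%). Cdc6, which loads the replicative helicase, was at 13.2 and 15.3 FPKM on the control diet, 12.2 and 16.3 on 0.8 g/kg, 18.8 and 15.5 on 0.4 g/kg and 26.5 and 21.3 without valine. Its valine-free libraries were the 2 highest (0.70, adjusted p = 0.371 against control). None of the replication genes passed the threshold. APC/C subunits (15 tested), cohesin genes (10) and cell-cycle brakes (17) had medians of −0.07, −0.01 and 0.07 at 0 against 8 g/kg, also with none past it.

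In KOPTK1 the comparison asked how the same genes differed when NOTCH1 cleavage was blocked. CDC25C was under the minimum mean of 1 FPKM (0.589 FPKM, on 731 to 1419 reads) and was not tested. Of 38 genes tested, 25 fell with gSI and none rose at an adjusted p of 0.05 in limma. Of all tested genes 30.3% fell and 22.8% rose. The median log2 difference was −0.25 against −0.03 over all tested genes, 31 genes were lower (background 54.9%), and the libraries of both treatments did not overlap, lower, for 30 (background 42.4%). With quantile scaling, 18 fell and 4 rose, and without gSI replicate 2, 14 fell. T-ALL markers fell in the same libraries (10 of 12 tested, background 30.3%), and their part was not tested. The 15 of 17 listed summed to 393 and 376 FPKM with DMSO and 214 and 227 with gSI. They include NOTCH1, HES1 and DTX1, genes of the pathway on which gSI acts, so they are not markers of cell identity alone. No macrophage marker and 1 of 16 neutrophil markers were listed.

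Spindle assembly genes fell in 6 of 7 cases (background 30.3%). DLGAP5, which stabilises spindle microtubules, was at 6.79 and 5.98 FPKM with DMSO (replicates 1 and 2) and at 3.69 and 3.35 with gSI. TPX2 was at 18.2 and 16.6 and at 11.8 and 11.4 FPKM, and KIF11 at 14.7 and 13.1 and at 11.3 and 10.2. All gSI libraries were below all DMSO libraries, with differences of −0.71 (SE 0.0790, adjusted p = 3.0e-08), −0.55 (SE 0.0807, adjusted p = 2.4e-06) and −0.34 (SE 0.0831, adjusted p = 0.00103). Without gSI replicate 2, KIF11 did not pass (adjusted p = 0.0743).

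Of the entry genes, CDK1 and CCNA2 fell and CCNB1, PLK1 and AURKA did not pass the test. CDK1 was at 18.4 and 15.9 FPKM with DMSO and 13.4 and 12.0 with gSI (−0.40, SE 0.0855, adjusted p = 2.7e-04). CCNA2 was at 61.4 and 57.0 and at 52.7 and 48.1 FPKM (−0.23, SE 0.0858, adjusted p = 0.0257), a call lost without DMSO replicate 1 (adjusted p = 0.166) or gSI replicate 2 (0.292), and reversed in sign with quantile scaling (0.0395). CCNB1 was instead at 10.6 and 10.5 and at 11.7 and 11.5 FPKM, above DMSO in both gSI libraries (0.13, SE 0.0780, adjusted p = 0.158; with quantile scaling 0.21, adjusted p = 0.0206). PLK1 (0.03) and AURKA (0.01) overlapped between treatments.

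AURKB, at 18.8 and 17.6 FPKM with DMSO and 11.7 and 12.4 with gSI, was the passenger that fell (−0.56, SE 0.0805, adjusted p = 1.6e-06). BIRC5 was at 13.4 and 13.2 and at 11.5 and 12.2 FPKM (−0.15, adjusted p = 0.106). Kinetochore genes fell in 4 of 5 cases and checkpoint genes in 3 of 4 (background 30.3%). BUB1B, a checkpoint gene that fell, was at 2.43 and 2.21 FPKM with DMSO and 1.63 and 1.64 with gSI (−0.33, adjusted p = 1.7e-04 in limma). CENPA, which had one of the largest valine-free differences in mouse, was at 1.55 and 1.51 and at 1.48 and 1.36 FPKM here (−0.06, SE 0.0613, adjusted p = 0.398).

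Neither APC/C partner passed the test, with CDC20 at 27.6 and 28.5 FPKM with DMSO and 29.1 and 29.5 with gSI (0.06, adjusted p = 0.554; with quantile scaling 0.24, adjusted p = 0.0273). Of the cytokinesis genes 6 of 7 fell (background 30.3%), with PRC1 at 5.16 and 4.75 and at 3.46 and 3.66 FPKM (−0.38, adjusted p = 1.2e-04 in limma). TOP2A was at 92.2 and 82.7 and at 68.0 and 65.0 FPKM (−0.39, SE 0.0866, adjusted p = 4.6e-04; with quantile scaling −0.18, adjusted p = 0.0592). MKI67, which encodes the proliferation marker Ki-67 and had no row in mouse, was at 68.9 and 57.4 and at 48.2 and 53.1 FPKM (−0.31, SE 0.0917, adjusted p = 0.00593). Its call was lost with quantile scaling (adjusted p = 0.734) and without DMSO replicate 1 (0.165) or gSI replicate 1 (0.0951). Among related lists, 50 of 70 further mitosis genes fell and 3 rose, and 27 of 32 DNA replication genes fell and none rose, with medians of −0.25 and −0.51, whereas in mouse without valine their medians were 0.00 and 0.28.

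**Figure D5:**
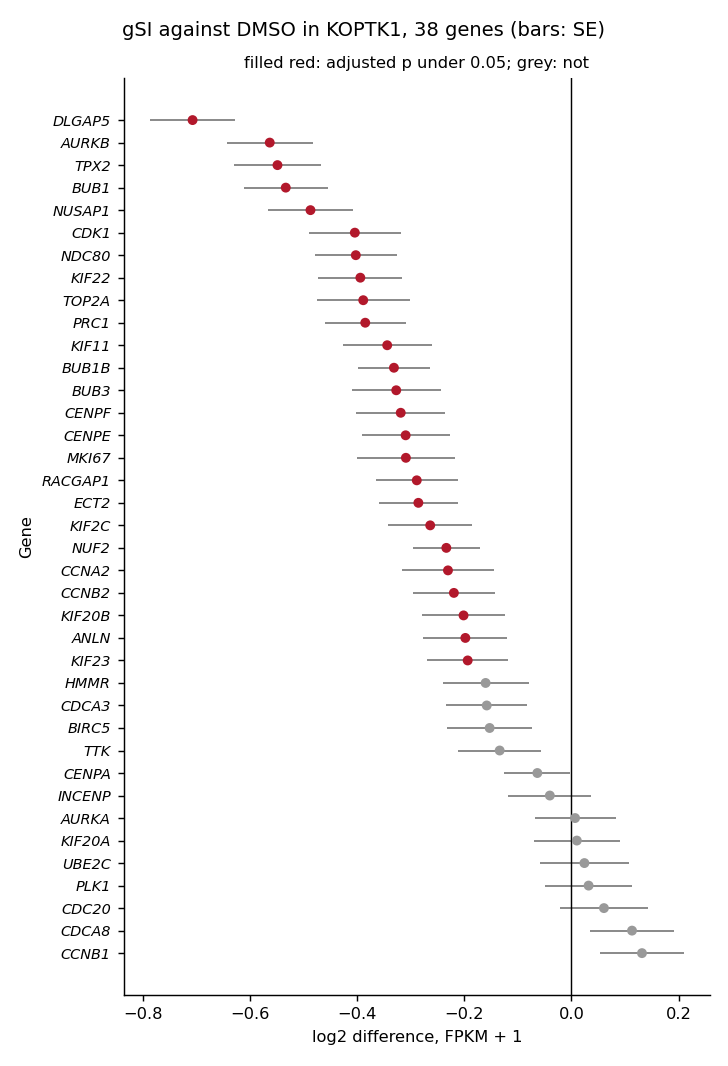
Log2 difference of FPKM + 1 between gSI and DMSO (horizontal axis) for the 38 tested mitosis genes in KOPTK1 (rows), with bars of 1 standard error from limma (2 libraries per treatment), red where the adjusted p was under 0.05. The 25 red genes are all below 0, and CCNB1, CDCA8 and CDC20 are farthest above 0 without passing.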

How the data were processed

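RNA-seq libraries of sorted mouse T-ALL cells (8) and of KOPTK1 cells (4) were used. Per the labels' protocols, RNA was extracted with an RNeasy kit and sequencing libraries were directional. The authors deposited FPKM per gene, in 1 table per species. The submitters' processing notes name STAR, edgeR, hg19 and mm10, and neither counting tool nor gene model is given in the sources used here. The members and gene lists were chosen with earlier results of these data known. Levels were tested as log2(FPKM + 1) in genes whose mean reached 1 FPKM (9943 mouse, 6679 human), with limma 3.58.1 in R 4.3.3, two-sided with a variance trend, Benjamini-Hochberg adjustment over all tested genes and calls under 0.05. All mouse diets entered 1 fit. Adding 1 FPKM understates the differences of low genes. An exact permutation test of 2 against 2 libraries cannot go below p = 0.333.

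Named genes were 14 fixed ones (Cdk1, Ccna2, Ccnb1, Plk1, Aurka, Aurkb, Birc5, Cenpa, Bub1b, Cdc20, Top2a, Mki67, Kif11, Prc1), any called in mouse, the 2 with the smallest p per direction in each comparison with the control diet and the slope, and in KOPTK1 the 3 largest called changes. Members named beyond these were chosen after their values were seen. Of other lists up to 3 genes by smallest p were named. Whole reads were recovered from the FPKM steps (ratios whole within 1e-09) and used for depth and a limma-voom alternative. The gene length that follows was 3180 bp at the median in mouse but 29957 bp in human, hence human FPKM were compared only within a gene. Replicate libraries differed beyond counting noise in every group (chi-square over degrees of freedom 5.73 to 93.4). Alternatives were pseudocounts (0.1, 5), filters (none, mean of 5 FPKM), scaling (median-of-ratios, quantile), a flat variance, a replicate block, fits of only 2 diets and omission of each library. Scripts were tested on simulated data.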

Additional observations from a re-analysis of the deposited data

How the results depend on the processing

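No mitosis gene was called in any mouse comparison under any alternative run. The mouse medians moved with single libraries: leaving out each library gave −0.52 to −0.04 for 0 against 8 g/kg, 0.30 to 0.46 for 0.4 against 8 g/kg, 0.03 to 0.53 for 0.8 against 8 g/kg, −0.92 to −0.44 for 0 against 0.4 g/kg, −0.84 to −0.35 for 0 against 0.8 g/kg and −0.14 to 0.05 for the slope. Other settings kept each within −0.30 to −0.25, 0.36 to 0.44, 0.25 to 0.33, −0.70 to −0.59, −0.61 to −0.52 and −0.08 to −0.07. An omission left the names TALL2 and TALL3 unequal between diets, and the part of this in the shifts was not tested. Leaving out single libraries also turned the sign of some named genes, at 0 against 8 g/kg for Top2a (−0.0860 to 0.19), Ttk (−0.15 to 0.37), Ndc80 (−0.13 to 0.34), Birc5 (−0.65 to 0.0645) and Kif11 (−0.38 to 0.12), and at 0.4 against 8 g/kg for Cdc20 (−0.13 to 0.46). For Top2a and Ttk it was the TALL2 control or the TALL3 valine-free library, for Ndc80 the latter, for Birc5 and Kif11 the TALL2 valine-free library and for Cdc20 the TALL2 control. In KOPTK1 the count of falls was 14 among the 24 members whose mean reached 5 FPKM, and 14 to 26 when single libraries were left out. The median was −0.14 with a pseudocount of 5, −0.17 with quantile scaling and −0.31 to −0.18 without single libraries. The sign turned for CCNA2 with quantile scaling (0.0395), and without single libraries for PLK1 (−0.0383 to 0.10, DMSO replicate 2) and AURKA (−0.0504 to 0.0642, DMSO replicate 2 or gSI replicate 1). The causes were not tested. Same-numbered libraries deviated together across genes in most pairs of diets but not in all (r = −0.17 to 0.74 over 9943 genes, 0.26 in KOPTK1 over 6679). The numbers were not taken as pairs because the labels do not say what they mark, and these correlations do not settle it. With the replicate block 0 members were called in mouse and 25 in KOPTK1, with medians of −0.28 for 0 against 8 g/kg and −0.25 in KOPTK1. The block raised the number of mouse members with an unadjusted p under 0.05 from 4 to 7 for 0 against 8 g/kg, from 8 to 14 for 0.4 against 8 g/kg and from 14 to 26 in the F test over the 4 diets (from 627 to 834 of all tested genes there). In limma fits of only 2 diets this number was 25 for 0.4 against 8 g/kg (1361 of 9852 tested genes, against 1059 of 9943 in the main fit). It was 10 instead of 22 for 0 against 0.8 g/kg, 3 instead of 4 for 0.8 against 8 g/kg and 30 instead of 31 for 0 against 0.4 g/kg. For 0 against 8 g/kg it stayed at 4. The least read number behind a mouse member in any library was 173.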
